A study of Mus musculus with 12 samples.

Results

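The genes described here are 39 genes that mark the endothelial cells of the liver vessels and sinusoids or the hepatic stellate cells and their extracellular matrix, 18 endothelial and 21 stellate or matrix genes, out of 19938 genes with a probe set of their own. They were taken by name as a fixed list, which was chosen with earlier results of these data known. For each gene the probe set annotated to that gene alone with the highest mean over the 12 arrays was used. All 39 were measured and no filter on low signals was applied. Whole livers of 12 suckling pups at postnatal day 2 (P2) were profiled on Affymetrix mouse gene arrays, 1 pup per array, with 3 male and 3 female pups in each genotype. The 6 *Ppara*+/+ pups carried the intact gene for PPARα, a nuclear receptor activated by fatty acids, and the 6 *Ppara*-/- pups lacked it in the whole body, so that endothelial and stellate cells were deficient as well as hepatocytes. Parents were heterozygous, which gave both genotypes within a litter. The strain is SV129 in the sample labels, whereas the study's methods describe a C57BL/6 background. The pups of each genotype were drawn from 3 litters, so some of them were littermates. The labels do not say which, so the p-values measure the spread between these pups, and an effect of litter cannot be told apart from it.

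Liver sinusoids are lined by a fenestrated endothelium that filters plasma and clears waste molecules through scavenger receptors, and its junctions, growth factor receptors and lectins are widely used to recognise it. Stellate cells lie beneath this endothelium, store vitamin A as retinyl esters, sense platelet-derived growth factor and, when activated, turn into contractile cells that lay down collagen. In the newborn liver both cell types are still expanding together with the hepatocytes while blood formation withdraws from the organ.

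Signals are log2 values, and a difference is the mean of *Ppara*-/- minus the mean of *Ppara*+/+ pups at equal sex. Array medians ran from 7.16 to 7.20, and each of the 39 genes had a higher mean signal than these medians. Signals of different genes are not compared, because probes differ in brightness. *Ppara* itself was between 10.98 and 11.27 in the *Ppara*+/+ livers and between 10.21 and 10.33 in the *Ppara*-/- livers, so no library went against its label (difference -0.89, limma adjusted p = 1.2e-06). Hepatocyte markers averaged 13.10 to 13.35 in *Ppara*+/+ and 13.11 to 13.26 in *Ppara*-/- livers. *Ppara*+/+ replicate 7 and *Ppara*-/- replicates 6 and 10 stood somewhat apart from their groups, the first in its macrophage and red cell genes and the others in pancreatic transcripts, and results are given without them where they matter.

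All 18 endothelial genes had a higher mean in the *Ppara*-/- livers, by small amounts that lay between 0.06 and 0.26 on the log2 scale. Their median difference was 0.13, or 1.10-fold, beside -0.01 for all genes, and 45.1% of all genes had a difference above 0. *Flt1* was the 1 endothelial gene that rose past the adjusted threshold of 0.05 in the limma fit over all probe sets, and none fell, where 1.99% of all genes were called higher and 1.12% lower. At an unadjusted p under 0.05, 13 of the 18 were higher and none lower, beside 9.27% of all genes higher and 7.89% lower. In none of the 18 were all *Ppara*-/- arrays above all *Ppara*+/+ arrays, a separation seen in 2.88% of all genes, with the reverse in 1.43%. In RNA from whole liver, more endothelial cells, more RNA per endothelial cell and a smaller share of RNA from other cells cannot be told apart.

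**Figure D1:**
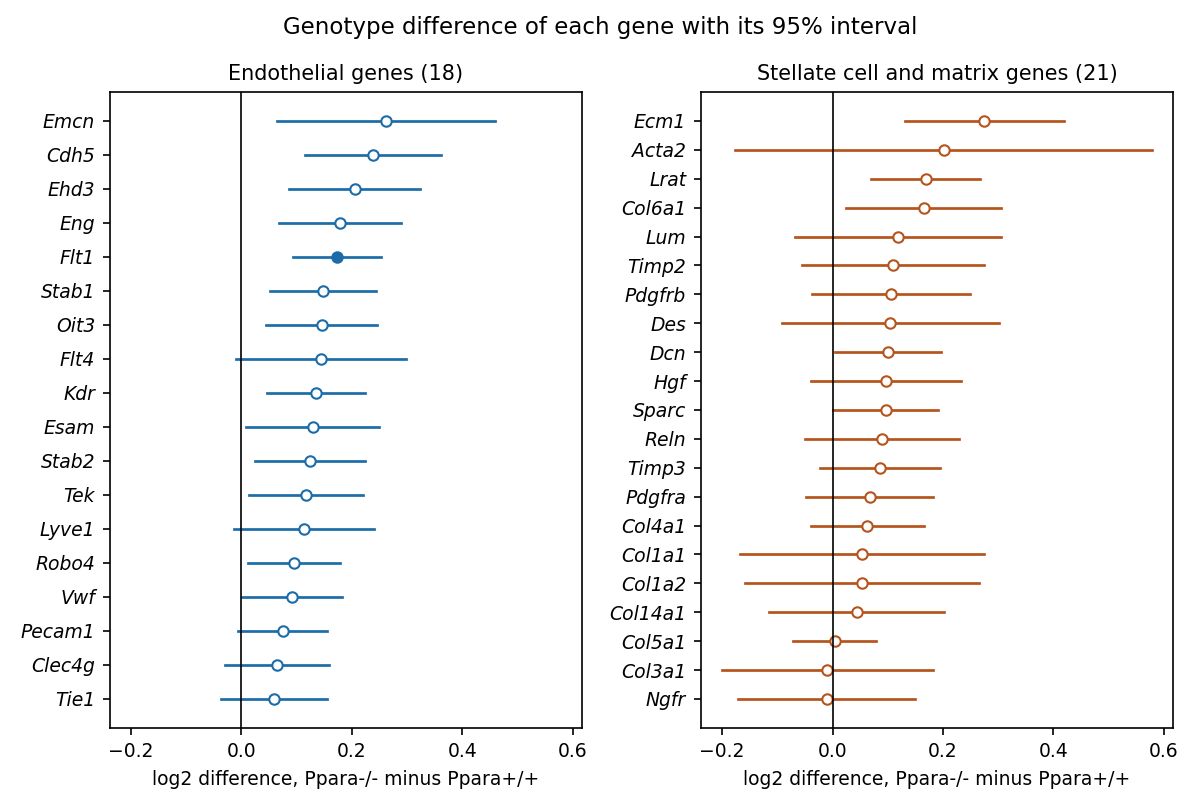
Log2 difference of *Ppara*-/- minus *Ppara*+/+ livers (x axis) for each gene (y axis), with points for the limma estimate, bars for its 95% interval and a filled point for an adjusted p under 0.05. All 18 endothelial estimates lie right of 0 and *Flt1* alone is filled, while the 21 stellate and matrix estimates reach from -0.01 to 0.28.

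*Flt1* encodes VEGF receptor 1, which binds VEGF tightly and limits how much reaches the signalling receptor. Its signal in the *Ppara*+/+ livers had a lowest value of 8.71, a median of 8.79 and a highest value of 8.88, and in the *Ppara*-/- livers 8.87, 8.97 and 9.05. The ranges met only at their edges, with 5 of the 6 *Ppara*-/- livers above every *Ppara*+/+ liver. The difference was 0.17 (SE 0.0362, 1.13-fold, limma adjusted p = 0.0293). *Flt1* kept this call when replicate 5, 6 or 12 of *Ppara*-/- or replicate 7 of *Ppara*+/+ was left out, and lost it without replicate 4, 10 or 11 of *Ppara*-/- or replicate 1, 2, 3, 8 or 9 of *Ppara*+/+, where the adjusted p was at most 0.0825 and the difference stayed between 0.16 and 0.18.

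The stretch of 150 bases before the annotated start of *Flt1* is shown with those of *Eng* and *Robo4*, 2 more endothelial genes, and of *Ecm1*, the matrix gene with the largest difference. Capitals mark AGGAAG, a sequence that holds the GGAA core bound by ETS factors, and TATAAA, the TATA box, searched on both strands. A match is a description of the letters and not evidence of binding. These genes were picked as examples and do not show how common a motif is among the members. The sequences are from RefSeq on the build GRCm38.p6, written 5′ to 3′ on the strand of the gene, for *Flt1* at chr5:147726012-147726161 on the minus strand, *Eng* at chr2:32646445-32646594 on the plus strand, *Robo4* at chr9:37401822-37401971 on the plus strand and *Ecm1* at chr3:95739570-95739719 on the minus strand.
Flt1: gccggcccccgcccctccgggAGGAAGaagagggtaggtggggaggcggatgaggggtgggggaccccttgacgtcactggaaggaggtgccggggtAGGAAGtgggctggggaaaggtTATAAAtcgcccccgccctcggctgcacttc
Eng: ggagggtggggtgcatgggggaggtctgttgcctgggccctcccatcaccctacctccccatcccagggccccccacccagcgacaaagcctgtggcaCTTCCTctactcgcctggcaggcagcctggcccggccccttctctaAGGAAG
Robo4: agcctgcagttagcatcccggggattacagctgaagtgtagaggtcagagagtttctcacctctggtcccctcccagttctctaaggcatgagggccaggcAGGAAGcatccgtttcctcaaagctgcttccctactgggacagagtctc
Ecm1: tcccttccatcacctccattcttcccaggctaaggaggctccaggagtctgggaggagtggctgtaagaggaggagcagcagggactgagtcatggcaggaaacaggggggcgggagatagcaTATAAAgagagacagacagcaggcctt

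Promoter windows, from 250 bases before to 50 after the start, were at hand for 12 of the 18 endothelial and 16 of the 21 stellate and matrix genes. AGGAAG or its reverse complement CTTCCT was present in 9 of the 12 endothelial windows (*Clec4g*, *Ehd3*, *Emcn*, *Eng*, *Flt1*, *Robo4*, *Stab1*, *Stab2* and *Tie1*), in 4 of the 16 stellate and matrix windows (*Col5a1*, *Col6a1*, *Hgf* and *Timp3*), and in 38.4% of the windows of 27025 genes. ETS factors are well known regulators of endothelial genes. TATAAA was present in the windows of *Flt1* and *Clec4g* among the endothelial genes and of *Col3a1* and *Ecm1* among the others, beside 15.7% of all windows. The exact repeat of AGGTCA and AGGTCA with any 1 base between them is an ideal form of the element that PPARα binds with its partner RXR. It was in none of the windows of either list and in 0.0481% of all windows. A sequence this rare would be missing from almost any list of this size, so its absence does not bear on binding of PPARα. Inexact forms and bases outside the windows were not searched.

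The 8 junction and surface genes had a median difference of 0.15, and 7 of them had an unadjusted p under 0.05. *Cdh5* encodes VE-cadherin, the adhesion molecule that holds endothelial cells together. Its signal was 10.47 at the lowest, 10.68 at the median and 10.83 at the highest in *Ppara*+/+ livers, and 10.82, 10.92 and 10.96 in *Ppara*-/- livers. The groups overlapped through *Ppara*+/+ replicate 7, which held the highest *Ppara*+/+ value, and *Ppara*-/- replicate 12, which held the lowest *Ppara*-/- value. The difference was 0.24 (SE 0.0561, 1.18-fold) and narrowly missed the threshold (limma adjusted p = 0.0527). *Ehd3*, which encodes a protein of endocytic recycling, was between 10.48 and 10.70 in *Ppara*+/+ livers (median 10.60) and between 10.69 and 10.92 in *Ppara*-/- livers (median 10.79). Its groups overlapped at the edges (difference 0.21, SE 0.0543, limma adjusted p = 0.0836).

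*Eng* encodes endoglin, a co-receptor for ligands of the TGF-β family. Its signal ran from 10.74 to 10.97 in *Ppara*+/+ livers (median 10.87) and from 10.95 to 11.14 in *Ppara*-/- livers (median 11.03), a difference of 0.18 (SE 0.0503, limma adjusted p = 0.106). *Emcn*, for endomucin, a sialoglycoprotein of the vessel surface, had the widest range of the endothelial genes among the *Ppara*-/- livers. It lay between 8.62 and 8.95 in *Ppara*+/+ livers (median 8.76) and between 8.69 and 9.25 in *Ppara*-/- livers (median 9.03), and 5 of the 6 *Ppara*-/- livers were above every *Ppara*+/+ liver. The overlap came from *Ppara*-/- replicate 12, and the difference was 0.26 (SE 0.09, limma adjusted p = 0.19, and 0.0486 without that array). The junction protein *Esam* differed by 0.13, the guidance receptor *Robo4* by 0.10, the clotting factor carrier *Vwf* by 0.09 and the adhesion molecule *Pecam1* by 0.07, the last with an unadjusted p of 0.0664.

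The 5 growth factor receptors had a median difference of 0.14. *Kdr*, VEGF receptor 2 and the main signalling receptor for VEGF, was between 9.82 and 10.04 in *Ppara*+/+ livers (median 9.99) and between 10.03 and 10.17 in *Ppara*-/- livers (median 10.10). The ranges overlapped slightly (difference 0.14, SE 0.0407, limma adjusted p = 0.131). *Flt4*, the VEGF-C receptor of lymphatic and sinusoidal endothelium, differed by 0.14 with an interval that included 0, and *Tek*, the angiopoietin receptor Tie2, by 0.12. *Tie1*, its partner receptor, was between 9.12 and 9.29 in *Ppara*+/+ livers (median 9.14) and between 9.14 and 9.32 in *Ppara*-/- livers (median 9.22). These ranges were nearly the same, and the difference was the smallest of the endothelial genes, 0.06 (95% interval -0.04 to 0.16).

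The 5 sinusoidal scavenger and lectin genes had a median difference of 0.12, and 3 had an unadjusted p under 0.05. *Stab1*, a scavenger receptor for modified proteins, was between 10.02 and 10.19 in *Ppara*+/+ livers (median 10.11) and between 10.13 and 10.33 in *Ppara*-/- livers (median 10.27), so the groups overlapped (difference 0.15, SE 0.0438, limma adjusted p = 0.127). *Stab2*, which takes up hyaluronan, differed by 0.12, and *Oit3*, a secreted protein of liver endothelium, by 0.15. The hyaluronan receptor *Lyve1* differed by 0.11 and the C-type lectin *Clec4g* by 0.06, and their unadjusted p-values were 0.0762 and 0.16. *Stab1* and *Lyve1* are also made by some tissue macrophages, whose markers are described further on.

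**Figure D2:**
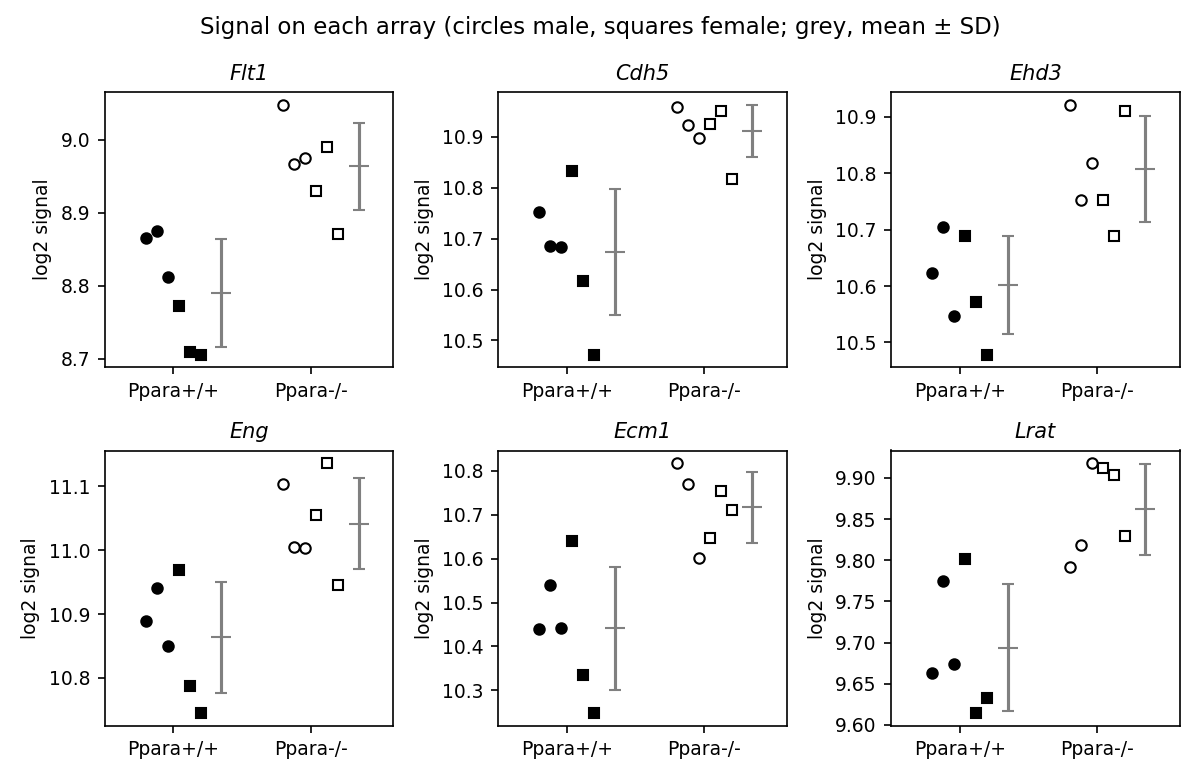
Log2 signal (y axis) on each array for the genes *Flt1*, *Cdh5*, *Ehd3*, *Eng*, *Ecm1* and *Lrat*, with filled symbols for *Ppara*+/+ and open symbols for *Ppara*-/- livers, circles for males, squares for females and grey bars for the mean ± SD of 6. Axes do not start at 0, and in each panel the highest *Ppara*+/+ value lies level with or above the lowest *Ppara*-/- value, as for *Flt1* at 8.88 and 8.87.

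Of the 21 stellate and matrix genes, 19 had a higher and 2 a lower mean in *Ppara*-/- livers, with a median difference of 0.10, or 1.07-fold. Of all genes, 45.1% had a difference above 0. None passed the adjusted threshold in either direction in the limma fit, where 1.99% of all genes were called higher and 1.12% lower. At these shares a list of 21 genes often holds no called gene. At an unadjusted p under 0.05, 5 were higher, namely *Ecm1*, *Lrat*, *Col6a1*, *Dcn* and *Sparc*. None was lower at that level, beside 9.27% of all genes higher and 7.89% lower. The exact Mann-Whitney test with Benjamini-Hochberg adjustment called none, but in these data it could call no gene, even one with its groups fully apart. None of the 21 had its groups apart, beside 2.88% of all genes with *Ppara*-/- above and 1.43% with *Ppara*-/- below. For 19 of the 21 the 95% interval kept within a 1.3-fold difference either way, the exceptions being *Ecm1* and *Acta2*, and the same held for 17 of the 18 endothelial genes, with *Emcn* as the exception.

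Among the 8 stellate cell genes, *Lrat* had the smallest p-value. It encodes lecithin retinol acyltransferase, the enzyme that esterifies vitamin A for storage in these cells. Its signal was 9.61 at the lowest, 9.67 at the median and 9.80 at the highest in *Ppara*+/+ livers, and 9.79, 9.87 and 9.92 in *Ppara*-/- livers. The overlap came from 1 *Ppara*+/+ liver, replicate 7, and the difference was 0.17 (SE 0.0454, 1.12-fold, limma adjusted p = 0.0897). *Hgf*, the hepatocyte growth factor that stellate cells supply, was between 9.55 and 9.89 in *Ppara*+/+ livers (median 9.71) and between 9.77 and 9.94 in *Ppara*-/- livers (median 9.79), with broad overlap and a difference of 0.10 (SE 0.0624).

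The PDGF receptors differed by 0.11 for *Pdgfrb* and 0.07 for *Pdgfra*, the filament protein desmin (*Des*) by 0.10 and the secreted glycoprotein reelin (*Reln*) by 0.09. *Ngfr*, the p75 neurotrophin receptor of stellate cells and nerves, was almost level at -0.01 (SE 0.0731). *Acta2*, the smooth muscle actin of vessel walls and activated stellate cells, varied most between pups. It ran from 9.54 to 10.46 in *Ppara*+/+ and from 9.78 to 10.64 in *Ppara*-/- livers, and its difference of 0.20 had a 95% interval from -0.18 to 0.58.

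The 7 collagen chains had the smallest median difference of the groups by role, 0.05. *Col1a1* and *Col1a2*, the chains of the main fibrillar collagen of scar tissue, both differed by 0.05, and *Col3a1*, the chain of reticular fibres, by -0.01. Each of these varied by more than that between pups of 1 genotype, with an SD of 0.21 for *Col1a1* and 0.20 for *Col3a1* among the *Ppara*+/+ livers. *Col5a1*, a fibril-starting collagen, was flat, between 7.99 and 8.04 in *Ppara*+/+ livers (median 8.01) and between 7.95 and 8.10 in *Ppara*-/- livers (median 8.02), and its interval of -0.07 to 0.08 was the narrowest of the collagens. The basement membrane chain *Col4a1* differed by 0.06 and the fibril-associated chain *Col14a1* by 0.04. *Col6a1*, of the beaded filaments around cells, had the largest collagen difference, 0.17 (SE 0.0639, limma adjusted p = 0.248), with *Ppara*+/+ livers from 8.09 to 8.46 (median 8.35) and overlapping *Ppara*-/- livers from 8.40 to 8.62 (median 8.46).

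The 6 other matrix genes had a median difference of 0.11. *Ecm1* encodes a secreted glycoprotein of the matrix that hepatocytes make as well. Its signal was 10.25 at the lowest, 10.44 at the median and 10.64 at the highest in *Ppara*+/+ livers, and 10.60, 10.73 and 10.82 in *Ppara*-/- livers. *Ppara*+/+ replicate 7 was again the liver that overlapped with the other genotype, and the difference of 0.28 (SE 0.0661, 1.21-fold) did not pass (limma adjusted p = 0.0573). Decorin (*Dcn*), a small proteoglycan that coats collagen fibrils, was between 12.21 and 12.38 in *Ppara*+/+ livers (median 12.28) and between 12.30 and 12.46 in *Ppara*-/- livers (median 12.40), a difference of 0.10. *Sparc*, a collagen-binding protein, was between 12.41 and 12.61 in *Ppara*+/+ livers (median 12.48) and between 12.51 and 12.65 in *Ppara*-/- livers (median 12.60), again a difference of 0.10. In both the groups overlapped (limma adjusted p = 0.309 and 0.327). The proteoglycan lumican (*Lum*) differed by 0.12, and the inhibitors of matrix proteases *Timp2* and *Timp3* by 0.11 and 0.09.

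**Figure D3:**
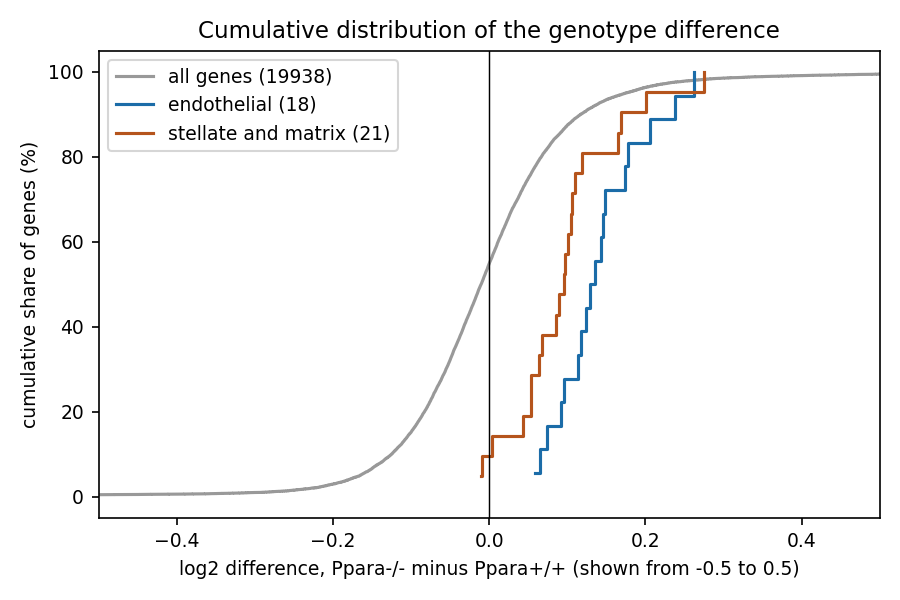
Cumulative share of genes in percent (y axis) against the log2 difference of *Ppara*-/- minus *Ppara*+/+ livers (x axis, shown from -0.5 to 0.5) for all 19938 genes, the 18 endothelial and the 21 stellate and matrix genes. The curve of all genes crosses 0 near its middle, with a median of -0.01, and both member curves lie to its right, with medians of 0.13 and 0.10.

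Within a genotype, the same few pups held the low and the high values of many members. *Ppara*+/+ replicate 9 had the lowest signal of its genotype in 23 of the 39 genes, beside 17.7% of all genes, and *Ppara*+/+ replicate 7 had the highest of its genotype in 23 of the 39, beside 26% of all genes. Replicate 9 was the lowest of all 12 arrays for 10 endothelial and 12 stellate and matrix genes. Among the *Ppara*-/- livers, replicate 4 had the highest signal of all arrays for 10 endothelial genes, while its stellate and matrix genes averaged no deviation from the mean of all arrays (0.00). The endothelial genes of each array averaged from -0.15 to 0.02 around their means over all arrays in the *Ppara*+/+ livers and from 0.01 to 0.12 in the *Ppara*-/- livers. For the stellate and matrix genes these values were -0.21 to 0.10 and 0.00 to 0.11, so the ranges of the genotypes overlapped in both lists.

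The *Ppara*+/+ livers were more spread out than the *Ppara*-/- livers in these genes. The SD of the *Ppara*+/+ livers was the larger in 14 of the 18 endothelial and 18 of the 21 stellate and matrix genes, beside 52% of all genes. The median SD was 0.0870 against 0.0660 for the endothelial genes and 0.147 against 0.0604 for the stellate and matrix genes, as a description with no test. *Timp2* was among the widest apart, with an SD of 0.18 in *Ppara*+/+ and 0.03 in *Ppara*-/- livers.

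**Figure D4:**
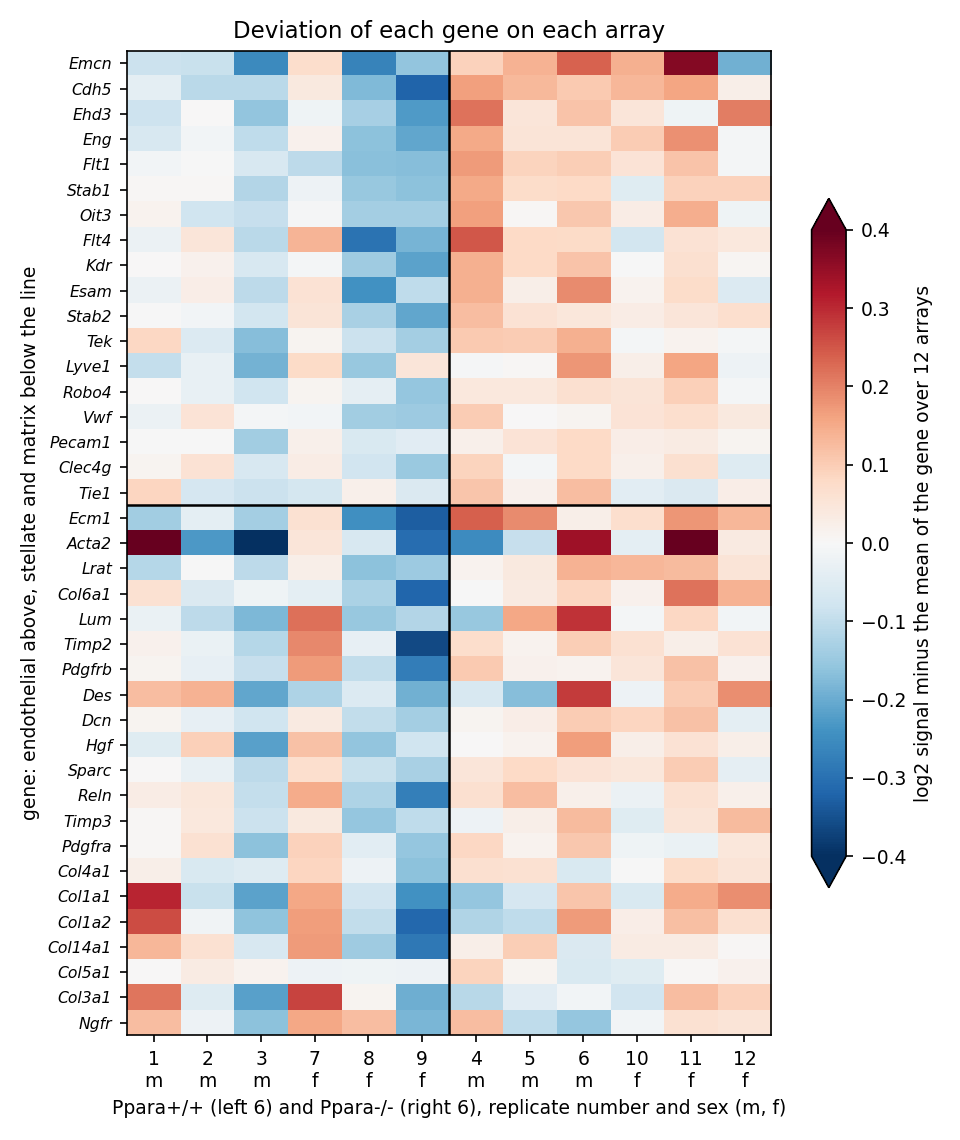
Deviation of the log2 signal of each gene (rows, endothelial above the line, stellate and matrix below, each sorted by genotype difference) from its mean over the 12 arrays (columns, *Ppara*+/+ left, *Ppara*-/- right, m male, f female). *Ppara*+/+ replicates 3, 8 and 9 are blue in most rows, *Ppara*+/+ replicate 7 is red in 14 collagen, stellate and other matrix rows where it is the highest of its genotype, and *Acta2* exceeds the colour range.

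*Ppara*+/+ replicate 7 was the array whose removal gave the most called members among the fits that left out 1 array. Without it, 5 endothelial genes passed the adjusted threshold, *Flt1*, *Cdh5*, *Eng*, *Ehd3* and *Kdr*, and 2 stellate and matrix genes, *Lrat* and *Ecm1*, all higher in *Ppara*-/- livers, where 3.6% of all genes were called higher. The median difference was then 0.16 for the endothelial and 0.12 for the stellate and matrix genes, and all 39 differences were above 0. Without *Ppara*-/- replicates 6 and 10, the livers with the most pancreatic transcripts, no member of either list was called in the limma fit, and every endothelial difference was still above 0.

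Among the other cell types, most markers of 2 had an unadjusted p under 0.05, macrophages upward and red cells downward, without an adjusted call. Of all genes, 9.27% were higher and 7.89% lower at that level, and 1.99% and 1.12% after adjustment. All 13 Kupffer cell markers had a higher mean in *Ppara*-/- livers, by a median of 0.19, and none passed the adjusted threshold while 9 had an unadjusted p under 0.05. Their summed level, given as the mean log2 signal of the list, ran from 9.76 to 10.17 in *Ppara*+/+ and from 10.04 to 10.17 in *Ppara*-/- livers, and *Clec4f*, the lectin that defines these macrophages, differed by 0.21 (limma adjusted p = 0.0635). All 12 measured erythroid markers had a lower mean, with a median difference of -0.18, with 9 at an unadjusted p under 0.05 and none past the adjusted threshold. Their mean signal ran from 11.33 to 11.72 in *Ppara*+/+ and from 11.24 to 11.60 in *Ppara*-/- livers. Of these markers, the macrophage scavenger receptor *Cd163* had a mean of 7.15 in *Ppara*+/+ livers, at the level of the array medians. The part of these cells in the endothelial and stellate differences was not tested.

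*Ppara*+/+ replicate 7, high for the stellate genes, was also the *Ppara*+/+ liver with the highest Kupffer cell markers (0.17 above their means over all arrays) and the lowest erythroid markers (-0.18). Without this array, 5 Kupffer cell markers were called higher and 5 erythroid markers lower, where 718 of 19938 genes were called higher and 348 lower. *Ppara*+/+ replicate 9, low for the members, was the lowest of its genotype in Kupffer cell markers (-0.24) with erythroid markers 0.17 above. Other arrays did not follow this arrangement. In *Ppara*+/+ replicate 1 the stellate and matrix genes (0.07) and the erythroid markers (0.09) were both above their means, and Kupffer cell markers below (-0.05). Transcripts of the exocrine pancreas had a mean signal between 6.41 and 7.70 in *Ppara*+/+ and between 6.50 and 8.87 in *Ppara*-/- livers, highest in *Ppara*-/- replicates 6 and 10. Their median difference was 0.72, and none of 10 markers was called, adjusted or unadjusted. Hepatocyte markers had a median difference of 0.01, with single markers from -0.49 to 0.11. The median was 0.07 each for cholangiocyte and mesothelial markers, 0.05 for megakaryocyte, 0.07 for granulocyte and -0.14 for lymphoid markers. None was called in any of these lists after adjustment. At an unadjusted p under 0.05, these lists held 3 granulocyte markers and 1 hepatocyte marker that were higher and 1 lymphoid marker that was lower. The shares over all genes were 9.27% higher and 7.89% lower. Mean signals of 2 lists were near the array medians. Cholangiocyte markers ran from 6.60 to 6.97 in *Ppara*+/+ and from 6.69 to 7.33 in *Ppara*-/- livers, and lymphoid markers from 7.55 to 7.64 and from 7.32 to 7.65.

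**Figure D5:**
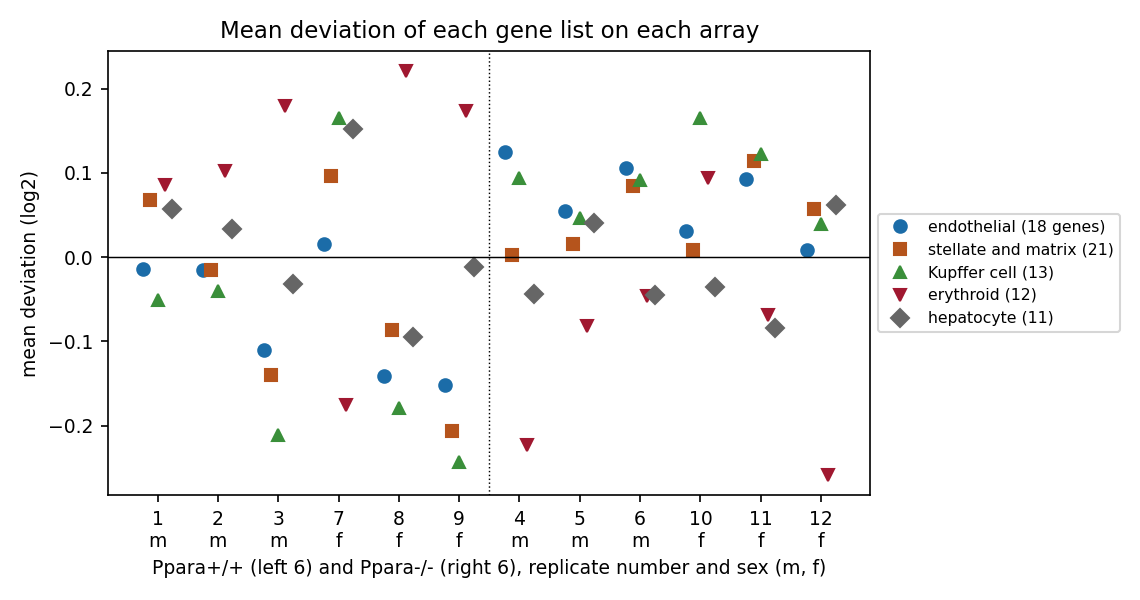
Mean deviation of each gene list from its means over the 12 arrays (y axis, log2) on each array (x axis, genotype, replicate number and sex), as an average over the genes of the list. The endothelial points of the *Ppara*-/- livers lie between 0.01 and 0.12, and the erythroid points of *Ppara*+/+ replicates 3, 8 and 9 lie high where the endothelial points lie low. This does not hold on every array: *Ppara*-/- replicate 12 has the lowest erythroid point of all (-0.26) and the lowest endothelial point of its genotype (0.01).

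A dependence of the genotype difference on sex was not detectable with 3 pups per sex and genotype. No member passed the limma test of the genotype by sex interaction, adjusted or at an unadjusted p under 0.05, beside 0% and 1.79% of all genes. All 18 endothelial genes had a difference above 0 both in males, where 46% of all genes did, and in females, where 46.9% did, with a median of 0.14 in each sex. In the stellate and matrix genes, 14 of 21 were above 0 in males, with a median of 0.08, and all 21 in females, with a median of 0.12. The 7 below 0 in males were *Des*, *Ngfr*, *Col1a1*, *Col1a2*, *Col3a1*, *Col5a1* and *Col14a1*. The smallest interaction p was that of *Col6a1*, with a difference of 0.04 in males and 0.29 in females (unadjusted p = 0.0556, limma).

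No member was called within males or within females alone after adjustment, beside 0.461% and 0.321% of all genes called higher. At an unadjusted p under 0.05, 5 endothelial genes were higher in males and 7 in females, beside 5.5% and 5.35% of all genes. Of the stellate and matrix genes these were 1 and 3. *Flt1* differed by 0.15 in males and 0.20 in females, and *Cdh5* by 0.22 and 0.26. Males had the higher mean in 17 of the 18 endothelial genes, beside 48.7% of all genes, by a median of 0.05. None of these sex differences passed the adjusted threshold (0.0401% of all genes did), and *Flt1* (0.09) and *Kdr* (0.10) had an unadjusted p under 0.05, a call made for 1.24% of all genes.

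The wider endothelial programme was described with 5 lists. Of all genes, 1.99% were called higher and 1.12% lower, and 9.27% were higher and 7.89% lower at an unadjusted p under 0.05. Of 12 genes for VEGF, angiopoietin and apelin signals none was called and 5 were higher at an unadjusted p under 0.05, with a median of 0.10, and *Nrp1*, a VEGF co-receptor, differed by 0.21 (limma adjusted p = 0.162). Of 14 endothelial transcription factors none was called and 3 were higher unadjusted, with a median of 0.05 and *Sox17*, of arterial identity, at 0.18. The *Sox17* mean of 7.24 in *Ppara*+/+ livers was near the array medians. Of 10 Notch pathway genes, none was called and 1 was higher unadjusted, *Notch2* at 0.14, with a median of 0.03. Of 7 Wnt and BMP signals of the sinusoid none was called, 1 was higher unadjusted and the median was 0.05, and *Rspo3*, the R-spondin that sets the zonation of hepatocytes around the central vein, differed by 0.21 (limma adjusted p = 0.0953). Of 19 further endothelial genes none was called, 9 were higher and 1 lower unadjusted, and the median was 0.13. In that list *Cd93*, a lectin-like surface receptor, differed by 0.18 (limma adjusted p = 0.0561) and *Gpr182*, a receptor of sinusoidal endothelium, by 0.16.

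The wider stellate and matrix programme was described with 6 lists, and 3 genes in them rose. Of all genes, 1.99% were called higher, and 9.27% were higher and 7.89% lower at an unadjusted p under 0.05. *Tgfbr2*, the type II receptor for TGF-β, rose by 0.17 (SE 0.0361, limma adjusted p = 0.0341), the 1 of 14 measured TGF-β and PDGF genes that was called, and 5 of these were higher unadjusted. *Nid1*, for nidogen, which links laminin and collagen in basement membranes, rose by 0.32 (SE 0.0631, limma adjusted p = 0.0201), the 1 called of 18 measured other matrix proteins, all of which had a difference above 0. *Mmp19*, a matrix metalloproteinase, rose by 0.27 (SE 0.054, limma adjusted p = 0.024), the 1 called of 10 proteases and inhibitors, of which 5 were higher and 1 lower unadjusted. In each of these 3 genes all *Ppara*-/- livers lay above all *Ppara*+/+ livers, as in 2.88% of all genes. Their calls were open to single arrays: *Tgfbr2* was called in 3 of 12 fits that left out 1 array, *Nid1* in 7 and *Mmp19* in 6, with adjusted p-values of up to 0.0945, 0.0597 and 0.0677. Without *Ppara*-/- replicates 6 and 10 together none of the 3 was called (limma adjusted p = 0.12, 0.0672 and 0.093). The exact Mann-Whitney test gave an adjusted p of 0.0691 for each. That is the lowest value the test could reach here with 6 against 6 arrays. It could therefore call no gene and does not bear on these calls. *Tgfbr2* lost its call without replicate 4, 6, 10, 11 or 12 of *Ppara*-/- or 2, 3, 8 or 9 of *Ppara*+/+, *Nid1* without replicate 5 or 11 of *Ppara*-/- or 2, 3 or 8 of *Ppara*+/+, and *Mmp19* without replicate 5, 10, 11 or 12 of *Ppara*-/- or 3 or 8 of *Ppara*+/+. None was called among 11 other collagen chains (median 0.03, 2 higher unadjusted), 11 collagen processing enzymes (0.10, 3 higher unadjusted) and 17 other stellate and mural cell genes (0.08, 4 higher and 1 lower unadjusted). In the last list *Vim*, for vimentin, differed by 0.12 and *Gfap*, a filament protein of quiescent stellate cells and glia, by -0.17. The *Gfap* means, 7.27 in *Ppara*+/+ and 7.09 in *Ppara*-/- livers, were near the array medians.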

How the data were processed

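Total RNA of whole liver was hybridised to 1 array per pup. The authors summarised the arrays to 1 log2 signal per probe set by RMA, which also normalizes across arrays. The sources used here give no version of it. The log2 values were used as deposited, without a filter. Of 35556 probe sets, 21789 were annotated to 1 gene by the platform table, 1621 to several and 12146 to none, and 99.6% of the first were found in the RefSeq table. A gene was represented by its probe set of highest mean. Of the members, *Clec4g* alone had a second probe set, of low signal, with a difference of -0.05.

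A model with genotype and sex was fitted to all probe sets with limma 3.58.1 in R 4.3.3 (residual df 9, prior df 2.49), and p-values were adjusted over all probe sets by Benjamini-Hochberg with a threshold of 0.05. The interaction and the differences within each sex came from 4 group means. The fit was tested on simulated data. The number of arrays limits the precision, and no detection calls were used. The members and the gene lists were chosen with earlier results of these data known. Every member is described, and array values are given for members that were called in the fit or with 1 array left out, the 5 of each list with the smallest p, the member of each list nearest to 0 and any member with an array far from its group. Of the other lists, called genes or else at most 2 with the smallest p are named, and *Cd163* was named after its values were seen. The alternatives were the sex term, renormalization, filters, the prior, array weights, an exact rank test and leaving out arrays.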

Additional observations from a re-analysis of the deposited data

Results flagged for a closer look

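*Hgf* in *Ppara*-/- replicate 6 was at 9.935 on the log2 scale, and the other 5 *Ppara*-/- livers lay between 9.77 and 9.83, which put this array apart from its group by Dixon's criterion (gap over range 0.656). It was the 1 such array among 78 groups of 6 values, where chance gives about 1 in 20.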

How the results depend on the processing

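All 18 endothelial differences stayed above 0 under each of the 25 alternatives, with a median between 0.12 and 0.16. Those of the stellate and matrix genes had a median between 0.06 and 0.12. The number of endothelial genes called higher, 1 as reported, was 3 without probe sets below the 40th percentile of means, with probe sets of 1 gene alone and with a robust prior with a trend (*Cdh5*, *Ehd3* and *Flt1* each time), 4 with array weights (*Cdh5*, *Eng*, *Kdr* and *Flt1*), 0 by the exact Mann-Whitney test, 0 without *Ppara*-/- replicates 6 and 10, 0 with a change above 1.3-fold also required, and 13 by unadjusted p. Without the sex term it was 1, *Cdh5* in place of *Flt1* (limma adjusted p = 0.0593). For the stellate and matrix genes, none as reported, the number was 1 without the sex term (*Ecm1*), 2 without dim probe sets, 1 with probe sets of 1 gene, 2 with the robust prior, 2 with array weights (*Lrat* and *Ecm1*) and 5 by unadjusted p. Leaving out 1 array gave 0 to 5 endothelial and 0 to 2 stellate and matrix genes, 5 and 2 without *Ppara*+/+ replicate 7, 2 endothelial genes (*Emcn* and *Flt1*) without *Ppara*-/- replicate 12, and 1 matrix gene (*Ecm1*) without *Ppara*-/- replicate 6. No member was called lower under any alternative.

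Over the alternatives other than the exact Mann-Whitney test, the adjusted p ran from 0.00978 to 0.0943 for *Flt1*, from 0.00919 to 0.144 for *Cdh5*, from 0.00865 to 0.138 for *Ecm1* and from 0.0381 to 0.258 for *Lrat*. By the exact Mann-Whitney test the adjusted p of *Flt1* was 0.0974. Of 975 pairs of a member and an alternative, 19 changed sign, all in 5 genes with a difference near 0. *Ngfr* was at 0.0064 with array weights, 0.028 without *Ppara*-/- replicates 6 and 10 and -0.060 to 0.023 leaving out 1 array. *Col3a1* was at 0.027, 0.011 and -0.062 to 0.045 in the same settings, and *Col5a1* at -0.0033 after quantile normalization and -0.013 to 0.021 leaving out 1 array. Leaving out 1 array, *Col1a2* was at -0.0091 to 0.12 and *Col14a1* at -0.0080 to 0.094. The causes were not tested. No paired analysis was possible because the labels do not give the litter of each pup. With 6 pups per genotype, the SEs of the members ran from 0.0345 to 0.172.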
